A study of Mus musculus with 3 samples.

Results

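The genes described here are 10 transcriptional regulators of the naive pluripotency network of mouse embryonic stem cells: Klf2, Klf4, Klf5, Esrrb, Nr0b1, Tfcp2l1, Tbx3, Gbx2, Zfp42 and Sall4. They were chosen by symbol as known members of that network. No value entered the rule, but earlier results of these data were known when the choice was made. All 10 were found among the 32285 genes of the count matrices, and all 10 were kept among 7884 genes by a minimum of 10 CPM, averaged over the 3 libraries. CPM is a gene's UMI count scaled to a common library total, and a UMI, or unique molecular identifier, counts 1 captured RNA molecule.

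The cells were E14 mESCs, an established embryonic stem cell line, with a 129/Ola background, grown on gelatin in fetal bovine serum with leukaemia inhibitory factor (LIF). The 3 conditions were 10 uM tubercidin for 3 h, 10 uM tubercidin for 6 h, and an equal volume of the solvent DMSO for 6 h as the control. Tubercidin is an analogue of adenosine. Each condition was 1 droplet-based single-cell library, with no solvent control of 3 h. The spread between cultures could therefore not be estimated, no difference was tested, and every interval given is an exact 95% interval for counting error alone.

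Naive pluripotency is the state of the preimplantation epiblast, and serum with LIF maintains it in culture as a mixture of cells nearer to and farther from that state. LIF acts through the receptor chains LIFR and gp130 on STAT3, and STAT3 raises transcription of several of the factors treated here. Inhibition of GSK3 relieves repression by TCF3 (Tcf7l1), and FGF signalling through ERK pushes cells out of the state. The network's factors bind one another's genes together with OCT4, SOX2 and NANOG, and their levels are known to vary from cell to cell in serum.

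The control, 3 h and 6 h libraries had 2031, 2365 and 2926 called cells with 104892739, 29892000 and 24681924 UMIs. The median cell held 48452, 11877 and 8004.5 UMIs, so the treated cells were much shallower. For that reason levels are given as CPM, the share of all UMIs in the library's cells, beside UMIs per cell. Each pair of libraries shared 1 cell barcode. All 6 markers of undifferentiated cells, among them Pou5f1 and Sox2, were present in every library and summed to 3533, 4611 and 3136 CPM. Of these sums Dppa5a alone made up 2549, 3555 and 2263 CPM, so they say little of the other markers. Pou5f1 was higher and Sox2 lower in both treated libraries than in the control. Markers of other cell types summed to between 0 and 12.4 CPM for 2-cell-like (6 of 7 markers listed), primitive-endoderm-like, fibroblast-like, mesoderm-like and neural-like cells. The 7 trophoblast markers summed to 39.8, 46.0 and 46.4 CPM, and the 5 formative or primed markers to 76.0, 49.7 and 51.5 CPM. Some genes of those lists were at or near 0. Fgf5 had no UMI in the control, 3 of the 2-cell markers had none in any library, and Elf5, Cdx2, Sox17, Otx2 and T averaged under 1 CPM. Others were present: 2 formative or primed, 3 trophoblast, 1 primitive-endoderm-like and 3 neural-like markers averaged at least 1 CPM. Among them Dnmt3b was at 60.7, 40.9 and 45.3 CPM and Pou3f1 at 13.5, 8.10 and 5.67 CPM. Krt8 was at 21.7, 29.5 and 29.0 CPM and Gata4 at 5.23, 4.75 and 7.33 CPM. The part of these markers in the results was not tested.

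The stretches upstream of 4 members are shown. Klf2 and Gbx2 had the lowest 6 h ratios of the 10 members, and Esrrb had the highest. Zfp42, whose 6 h ratio lay between these, is shown because it carried the most motif matches of the 4, so their number in it is no finding. RefSeq promoters were matched for 7 of the 10 members. Each line gives the 250 bases before the RefSeq start, 5′ to 3′ on the gene's strand, on GRCm38. Capitals mark matches on either strand to the KLF box CCACCC, the GC box GGGCGG, the octamer ATGCAAAT bound by OCT4 and its relatives, the ESRRB site AAGGTCA, the STAT site TTCCNGGAA and the TATA box TATAAA. The positions are chr8:72318812-72319061 (plus strand) for Klf2, chr1:89931177-89931426 (minus strand) for Gbx2, chr12:86360867-86361116 (plus strand) for the first of 2 Esrrb starts, and chr8:43307010-43307259 (minus strand) for Zfp42.
Klf2: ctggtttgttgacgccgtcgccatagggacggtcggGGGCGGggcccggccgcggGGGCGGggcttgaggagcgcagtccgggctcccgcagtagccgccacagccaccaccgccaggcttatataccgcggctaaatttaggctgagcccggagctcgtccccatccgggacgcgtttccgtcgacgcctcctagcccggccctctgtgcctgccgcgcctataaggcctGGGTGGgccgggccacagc
Gbx2: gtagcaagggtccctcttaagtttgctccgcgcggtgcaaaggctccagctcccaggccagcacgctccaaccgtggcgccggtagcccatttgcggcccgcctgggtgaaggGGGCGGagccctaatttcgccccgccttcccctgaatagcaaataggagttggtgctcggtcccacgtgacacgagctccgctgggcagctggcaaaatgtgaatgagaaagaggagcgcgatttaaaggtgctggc
Esrrb: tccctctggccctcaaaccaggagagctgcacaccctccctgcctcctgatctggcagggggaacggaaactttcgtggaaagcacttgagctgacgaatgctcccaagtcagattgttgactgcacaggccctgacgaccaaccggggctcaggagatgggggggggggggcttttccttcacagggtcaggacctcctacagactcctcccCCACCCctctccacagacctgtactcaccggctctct
Zfp42: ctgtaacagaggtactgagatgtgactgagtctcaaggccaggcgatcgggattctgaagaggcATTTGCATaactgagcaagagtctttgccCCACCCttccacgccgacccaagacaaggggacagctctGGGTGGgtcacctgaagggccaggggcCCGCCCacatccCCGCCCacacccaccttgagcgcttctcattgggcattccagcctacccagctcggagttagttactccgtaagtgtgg

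Klf2 showed 2 GC boxes and 1 KLF box in this stretch, Gbx2 showed 1 GC box, and Esrrb showed 1 KLF box. Zfp42 showed 2 KLF boxes, 2 GC boxes and the octamer, the latter on the opposite strand at position -186 from the start. Over all 32851 RefSeq promoters, in the window from 250 bases before to 50 bases after the start, a KLF box was found in 31.5%, a GC box in 35.7% and an octamer in 1.74%. In the same longer window, Klf4 held 4 GC boxes, of which an adjacent pair overlapped by 1 base, Nr0b1 held 2 KLF boxes and a TATA box, and Tfcp2l1 held a TATA box at position -28. TATA boxes were found in 13.6% of all promoters. The 8 windows of the 7 matched members held no match to the ESRRB site (4.72% of all promoters) or the STAT site (1.15%), which says only that these letters are not there. These matches are descriptions of sequence and not evidence of binding.

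Under tubercidin the 10 genes differed in direction and size. In share of the library, Klf2, Gbx2 and Tbx3 were lower by more than 2-fold at both times and Klf4 at 6 h, Klf5, Zfp42 and Nr0b1 were lower by less, and Esrrb and Sall4 were higher at both times, although in UMIs per cell all 10 were lower at both times. At 3 h, 8 members were lower and 2 higher than in the control, and at 6 h 7 were lower and 3 higher. Most genes were lower too: of all 7884 genes, 27.4% were higher at 3 h and 39.7% at 6 h. In UMIs per cell, scaled and with the pseudocount kept, 7785 of the 7884 genes were at least 2-fold lower at 3 h and 7818 at 6 h. The members' median log2 ratio of CPM + 1 was -0.47 at 3 h and -0.77 at 6 h, beside -0.27 and -0.12 for all 7884 genes. Both comparisons used the same control library. Summed over the 10 genes, the level was 1721 CPM (control), 1168 CPM (3 h) and 1232 CPM (6 h), or 88.9, 14.8 and 10.4 UMIs per cell.

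A gene was called where CPM + 1 differed 2-fold or more, which is a rule of size and not a test. By it 3 of the 10 members were lower at 3 h (Klf2, Tbx3 and Gbx2), where 5.54% of all genes were. None of the 10 was 2-fold higher at 3 h, where 0.888% of all genes were. At 6 h 4 members were 2-fold lower (Klf2, Klf4, Tbx3 and Gbx2) against 4.41% of all genes, and none was 2-fold higher against 2.33% of all genes. Between 3 h and 6 h only Klf2 of the members was 2-fold lower, a call made for 0.165% of genes, and no member was 2-fold higher, a call made for 1.64%. Gbx2 had a mean of only 10.2 CPM and passed the 10 CPM minimum through the control, so its place among the lowered genes adds nothing to these counts.

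**Figure D1:**
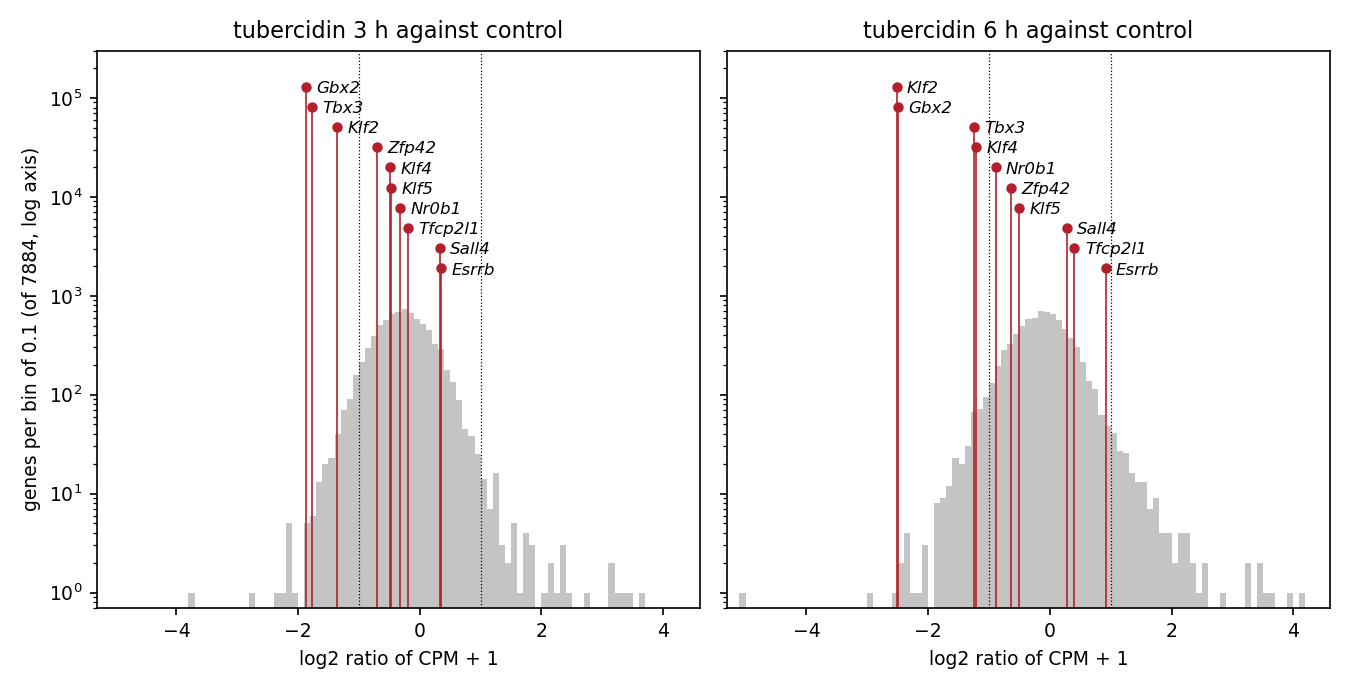
Grey bars count the 7884 genes by log2 ratio of CPM + 1 in bins of 0.1 (log axis), tubercidin 3 h against control on the left and 6 h against control on the right, with 2-fold dotted. Red lines stand at the 10 naive network genes, and their heights only separate the names: at 6 h Klf2 and Gbx2 lie at the lower edge near -2.5 and Esrrb at 0.92, while in UMIs per cell all 10 were lower.

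The median of all genes depends on the scaling, so each member is also given relative to it below. Replacing library totals by DESeq2 or TMM factors moved the median gene at 3 h by 0.23 and 0.19 on the log2 scale, and scaling per cell moved it by -1.88 at 3 h and by -2.41 at 6 h. With library totals, Esrrb, Sall4 and Tfcp2l1 exceeded the median gene in both comparisons with the control and the other 7 did not, and between the treated libraries Esrrb, Tfcp2l1 and Tbx3 lay above it.

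The Krüppel-like factors Klf2, Klf4 and Klf5 are zinc-finger proteins that bind GC-rich and CACCC-like sites and can replace one another in self-renewal. Klf2 (ENSMUSG00000055148, chr8:72319033-72321656, plus strand, GRCm38) stood at 229.7 CPM (control), 89.0 CPM (3 h) and 39.3 CPM (6 h). The control was highest and each treated library lower than the one before it in time. The log2 ratio was -1.36 at 3 h (interval -1.43 to -1.31) and -2.52 at 6 h (interval -2.64 to -2.46), or -1.09 and -2.40 relative to the median gene. Klf2 was 93rd from the lowest of 7884 ratios at 3 h and 3rd at 6 h, and 7th from the lowest between 3 h and 6 h, at -1.16. Its UMIs per cell were 11.9, 1.12 and 0.331, a 35.8-fold difference between control and 6 h.

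Klf4, a reprogramming factor placed downstream of LIF and STAT3 (ENSMUSG00000003032, chr4:55527143-55532466, minus strand), was at 60.5, 43.0 and 25.5 CPM. Its log2 ratio was -0.48 at 3 h and -1.21 at 6 h (interval -1.37 to -1.13), so it crossed 2-fold only at the later time. Relative to the median gene these were -0.21 and -1.10. Klf5, the member of the trio with a known role in the early blastocyst as well (ENSMUSG00000005148, chr14:99298691-99315036, plus strand), was at 237, 171 and 167 CPM. The log2 ratio of Klf5 was -0.47 at 3 h and -0.51 at 6 h. Its difference between 3 h and 6 h, -0.04 with an interval from -0.10 to 0.02, was within counting error. With library totals the 3 factors thus lay apart in time. Klf5 differed between the treated libraries by less than counting error, while Klf2 and Klf4 were lower at 6 h than at 3 h by 1.16 and 0.73 on the log2 scale. Over the alternatives besides UMIs per cell, the Klf5 ratio between the times ran from -0.26 to 0.04. That of Klf2 ran from -1.38 to -1.13 and that of Klf4 from -0.95 to -0.67.

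Esrrb encodes an orphan nuclear receptor that is derepressed when TCF3 is removed and can substitute for Nanog in several settings. This gene (ENSMUSG00000021255, chr12:86361117-86521628, plus strand) had 102 CPM (control), 131 CPM (3 h) and 193 CPM (6 h), an order opposite to that of Klf2. The log2 ratio was 0.35 at 3 h (interval 0.30 to 0.41) and 0.92 at 6 h (interval 0.87 to 0.97), and 97.1% of genes had a lower ratio at 6 h. Esrrb was nonetheless 3.19-fold and 3.23-fold lower in UMIs per cell, at 5.27, 1.65 and 1.63. Nr0b1, also called Dax1, is an orphan receptor without the usual DNA-binding domain that partners other factors of the network. It is X-linked (ENSMUSG00000025056, chrX:86191764-86195947, plus strand) and was at 43.1, 34.2 and 22.8 CPM. Its log2 ratio was -0.33 at 3 h, -0.06 relative to the median gene, and -0.89 at 6 h (interval -1.05 to -0.79), -0.77 relative to it. The pair of nuclear receptors therefore lay on opposite sides of the control at both times in share of the library, and on the same side in UMIs per cell.

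**Figure D2:**
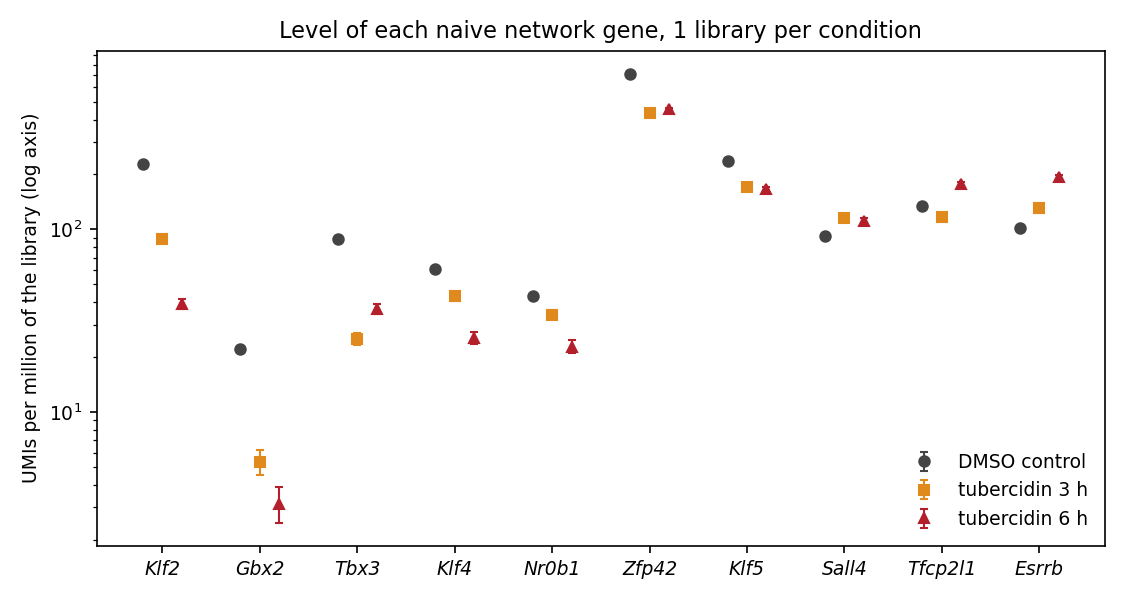
Level of each of the 10 genes in CPM (UMIs scaled to the library total, log axis) in the DMSO control, tubercidin 3 h and tubercidin 6 h, 1 library each, ordered by the 6 h ratio. Bars are exact Poisson 95% intervals, many smaller than the symbol: Klf2 steps down from 229.7 to 39.3 CPM while Esrrb steps up from 102 to 193 CPM, a direction that holds for shares of the library and not for UMIs per cell.

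Tfcp2l1 encodes a CP2-family factor that responds to both LIF and WNT input. The gene (ENSMUSG00000026380, chr1:118627945-118685168, plus strand) had 134 CPM (control), 117 CPM (3 h) and 178 CPM (6 h), so the 3 h library was lowest and the 6 h library highest. Its log2 ratio was -0.19 at 3 h (interval -0.25 to -0.14), near the median gene, and 0.40 at 6 h (interval 0.36 to 0.46). The 3 h sign was not stable, at 0.05 with DESeq2 factors.

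Tbx3, a T-box factor linked to PI3K input and to endoderm competence, and Gbx2, a homeobox factor and STAT3 target, were the members farthest below the control at 3 h. Tbx3 (ENSMUSG00000018604, chr5:119670669-119684724, plus strand) was at 88.3, 25.2 and 36.8 CPM, lowest at 3 h. Its log2 ratio was -1.77 at 3 h (interval -1.92 to -1.70), 18th from the lowest of all genes, and -1.24 at 6 h (interval -1.36 to -1.16). Among the members past 2-fold, Tbx3 was the one nearer to the control at 6 h than at 3 h, by 0.53 on the log2 scale (interval 0.41 to 0.69). Gbx2 (ENSMUSG00000034486, chr1:89927956-89931179, minus strand) was at 22.1, 5.32 and 3.12 CPM, from 2322, 159 and 77 UMIs. Without the pseudocount its log2 ratio was -2.06 at 3 h (interval -2.30 to -1.82) and -2.83 at 6 h (interval -3.17 to -2.50), and with it -1.87 and -2.49. In UMIs per cell Gbx2 was 43.4-fold lower at 6 h, without a pseudocount, and its counting interval overlapped that of Klf2.

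Genes on the opposite strand overlap Tbx3, Gbx2, Sall4 and Tfcp2l1 in GENCODE M21, and the strand setting of the counting is not given in the sources used here. Tbx3os1, antisense to Tbx3, was at 8.19, 7.33 and 11.3 CPM, and D130058E05Rik, over Gbx2, at 10.8, 8.26 and 8.95 CPM. Gm14261, over Sall4, had 37, 6 and 9 UMIs, and the genes over Tfcp2l1 were not analysed here. Without strand, reads of Gbx2 and of D130058E05Rik cannot be told apart, which limits the low Gbx2 values of the treated libraries most.

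Zfp42 encodes REX1, a zinc-finger protein widely used as a reporter of the naive state. The gene (ENSMUSG00000051176, chr8:43295063-43306980, minus strand) had 712 CPM (control), 437 CPM (3 h) and 455 CPM (6 h). Its log2 ratio was -0.70 (interval -0.73 to -0.68) and -0.65 (interval -0.68 to -0.62), or -0.43 and -0.53 relative to the median gene. Sall4 encodes a spalt-family zinc-finger factor that binds with OCT4 and NANOG. Its levels (ENSMUSG00000027547, chr2:168748332-168767943, minus strand) were 91.9, 116 and 112 CPM, with log2 ratios of 0.33 (interval 0.28 to 0.39) and 0.28 (interval 0.22 to 0.35). With library totals the treated libraries differed from each other by -0.05 (interval -0.12 to 0.03), within counting error. Over the alternatives besides UMIs per cell, this ratio of Sall4 ran from -0.27 to -0.01. For Sall4, barcodes below the cell minimum, which hold free RNA, had 118, 74.4 and 163 CPM, above its level in cells in the control and at 6 h and below it at 3 h, whereas for Zfp42 they had 422, 278 and 301 CPM, below its level in cells in all 3.

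Between 3 h and 6 h Esrrb, Tfcp2l1 and Tbx3 stood out as the 3 members with log2 ratios of CPM + 1 above 0.5, at 0.56, 0.60 and 0.53. Per cell they were nearly level over that interval. Esrrb was at 1.65 and 1.63 UMIs per cell, Tfcp2l1 at 1.48 and 1.499, and Tbx3 at 0.318 and 0.310. Over the same interval Klf2 was 3.39-fold lower per cell, Gbx2 2.55-fold, Klf4 2.53-fold and Nr0b1 2.25-fold, while Klf5, Sall4 and Zfp42 were 1.54-fold, 1.55-fold and 1.44-fold lower. CPM and UMIs per cell differ by 1 factor in each comparison, so the members' distances from one another were the same on both scales, apart from the pseudocount, and what differed was which of them lay above or below no change.

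To see whether the differences lay in many cells, each cell was thinned to 4000 UMIs, which kept 2031, 2243 and 2642 cells and left out 0, 122 and 284 shallower ones. A Klf2 UMI was then found in 56.5% of control cells (interval 54.3% to 58.6%), in 26.2% of 3 h cells (24.4% to 28.0%) and in 13.7% of 6 h cells (12.4% to 15.0%). Unthinned, the shares were 98.1%, 53.0% and 24.9%. Esrrb went the other way, with a UMI in 30.8% of control cells (28.8% to 32.8%), in 40.4% of 3 h cells (38.4% to 42.5%) and in 49.0% of 6 h cells (47.1% to 50.9%), but without thinning it was found in 94.98%, 73.0% and 71.0%. Counting noise around the thinned means would give 60.2%, 29.7% and 14.2% for Klf2, and 31.6%, 42.5% and 51.9% for Esrrb. The thinned shares thus mostly restate the means and cannot show whether a difference lay in many cells or few. No cell type lacking these genes was at hand to set a background for such shares. Free RNA in the barcodes below the cell minimum held 132, 37.9 and 19.8 CPM of Klf2 and 85.9, 84.2 and 120 CPM of Esrrb.

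The other members' thinned shares ran in the order of their CPM, except that of Zfp42 between the treated libraries, from which no order is read. Klf4 was found in 19.9%, 14.9% and 9.01% of cells, Tbx3 in 28.0%, 10.0% and 13.0%, and Gbx2 in 7.68%, 2.18% and 1.02%. Tfcp2l1 was found in 40.0%, 36.8% and 48.8%, so that at 6 h Tfcp2l1 and Esrrb were detected about equally often. Klf5 was found in 57.0%, 48.5% and 44.6%, Zfp42 in 89.7%, 78.1% and 77.7%, Nr0b1 in 15.5%, 13.2% and 8.55%, and Sall4 in 31.7%, 36.3% and 34.7%. A thinned control cell had a median of 4 of the 10 genes, against 3 at 3 h and 3 at 6 h, and 29.6%, 14.5% and 12.5% of cells had at least 5. Cells without any of the 10 made up 0.492%, 1.52% and 1.44%.

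**Figure D3:**
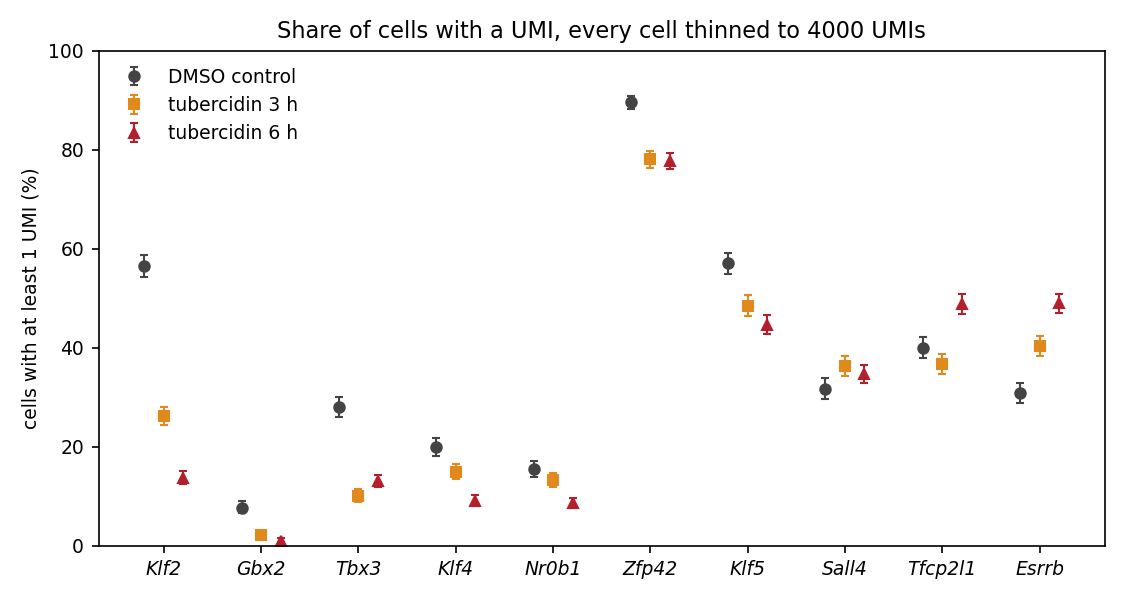
Percent of cells with at least 1 UMI of each gene after every cell was thinned to 4000 UMIs (2031 control, 2243 3 h and 2642 6 h cells), with exact binomial 95% intervals. Klf2 steps down from 56.5% to 13.7% and Esrrb up from 30.8% to 49.0%, whereas in unthinned cells both were found less often in the treated libraries.

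Thinning to so few UMIs itself brings counts close to counting noise, so the spread over cells at that depth says little about the members. The Fano factor, the variance over the mean, which is 1 for pure counting noise, was 1.21, 1.35 and 1.09 for Klf2, 1.07, 1.16 and 1.21 for Esrrb, and 1.43, 1.39 and 1.37 for Zfp42. When the cells of each library were split at its median UMIs, Klf2 was at 235.6, 88.1 and 38.8 CPM in the deeper cells and at 219.8, 90.7 and 40.2 CPM in the shallower ones. Esrrb was at 105.8, 129 and 199.7 CPM in the deeper cells and at 95.7, 133 and 181 CPM in the shallower ones. The order of the 3 libraries was thus the same in deep and shallow cells for both genes.

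The control cells were deep enough to compare the genes within single cells. Thinned to 20000 UMIs, 1968 control cells remained and 63 were left out. The 10 genes then summed to a median of 34 UMIs per cell, with 20 at the 10th and 49 at the 90th percentile and a Fano factor of 3.71. The Fano factor was 2.97 for Zfp42, 2.30 for Klf2 and 1.87 for Klf5, but it grows with the mean, and these 3 had the highest means, 14.1, 4.52 and 4.69 UMIs. The variance in excess of counting noise over the squared mean was lowest for Zfp42, at 0.140, beside 0.289 for Klf2, 0.311 for Tbx3 and 0.432 for Klf4. Klf2 was absent from 6.15% of cells where its mean and pure counting noise would give 1.09%, Tbx3 from 27.1% against 18.0%, and Klf4 from 36.5% against 29.8%.

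Over the same cells, correlations between members were weak and mostly positive, at 43 of 45 pairs, with a median Pearson r of 0.065 and 16 pairs above 0.1. The highest values joined Zfp42 to Klf4 (0.268), Tbx3 (0.241), Klf5 (0.233) and Esrrb (0.226). Klf4 with Tbx3 reached 0.203 and Tfcp2l1 with Tbx3 0.192, whereas the r of Klf2 with Klf5 was 0.0085. Against the sum of the other 9 members, Zfp42 had an r of 0.374, Klf4 0.292, Tbx3 0.275 and Esrrb 0.269, and Gbx2, Sall4 and Nr0b1 had 0.109, 0.0921 and 0.0697. These values describe cells of 1 library at 1 depth, and counts this sparse hold r near 0. At 4000 UMIs the pairs' median r in the 3 libraries was 0.036, 0.028 and 0.013, which at these levels is no finding.

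**Figure D4:**
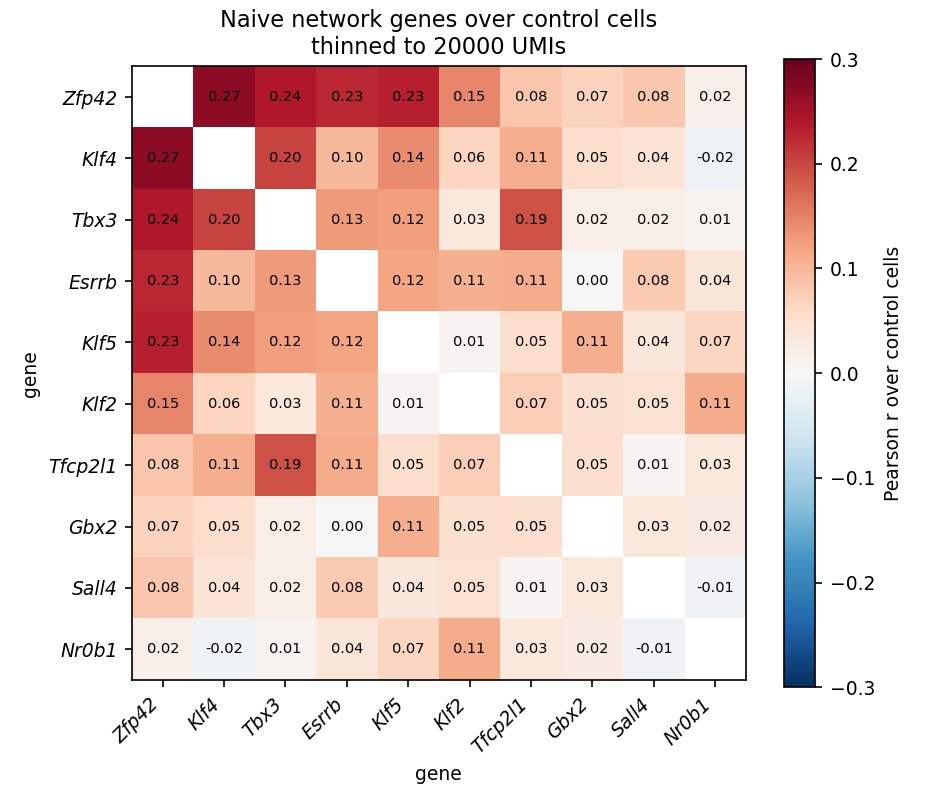
Pearson r over 1968 control cells, each thinned to 20000 UMIs, for the 45 pairs of naive network genes, ordered by r with the sum of the other 9. The warm block at the upper left joins Zfp42 with Klf4, Tbx3, Esrrb and Klf5, and the largest value is 0.27 between Zfp42 and Klf4.

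Outside the network, 5432 genes averaged 0.5 UMIs or more in a thinned control cell, and the 5 whose counts followed the sum of the 10 members most closely were Jam2, Zfp57, Nanog, Cobl and Kat6b. Jam2, a junctional adhesion molecule, had an r of 0.321, and Zfp57, which maintains methylation at imprinted loci, 0.320. Nanog, itself a core factor of the network, had 0.304, and Cobl and Kat6b had 0.290 and 0.289. The median r over those 5432 genes was 0.00507, with 95% of them between -0.0860 and 0.112.

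Across the 3 libraries, the genes nearest to Klf2 in its pair of log2 ratios, by Euclidean distance, were Rpp38 at 0.118, Zfp296 at 0.243 and the immediate early gene Ier2 at 0.282. Rpp38, which encodes a protein subunit of ribonuclease P, was at 28.1, 10.1 and 4.50 CPM. Zfp296, a zinc-finger gene, was at 29.2, 9.33 and 4.86 CPM, and Ier2 at 177, 70.8 and 36.6 CPM. Nearest to Esrrb were Gabpb1 at 0.0459, Map3k12 at 0.0749 and Dgki at 0.0792. Gabpb1, a subunit of the GA-binding protein, was at 25.01, 31.6 and 49.3 CPM, Map3k12, a kinase gene, at 13.1, 16.6 and 24.5 CPM, and the diacylglycerol kinase gene Dgki at 20.1, 27.5 and 38.8 CPM. With 3 libraries this likeness rests on 2 numbers for each gene.

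The members differ widely in the length of genome they span, and the longer ones tended to have the higher ratios, with exceptions. Tbx3 lay below the shorter Klf2, Nr0b1, Klf4 and Zfp42 at 3 h and below the shorter Nr0b1, Klf4 and Zfp42 at 6 h. At 3 h, Gbx2 also lay below the shorter Klf2, Klf4 and Klf5 below Nr0b1, Zfp42 below Nr0b1 and Klf4, and Tfcp2l1 below Sall4. At 6 h, Klf4 lay below the shorter Nr0b1. Klf2, Gbx2 and Nr0b1 span 2.62, 3.22 and 4.18 kb in GENCODE M21, Klf4, Zfp42, Tbx3, Klf5 and Sall4 span 5.32, 11.9, 14.1, 16.3 and 19.6 kb, and Tfcp2l1 and Esrrb span 57.2 and 160.5 kb. Spearman's rho between span and log2 ratio over the 10 genes was 0.75 at 3 h and 0.92 at 6 h. With exonic length in place of span it was lower, at 0.35 and 0.55. Over all 7884 genes the rho with span was -0.27 at 3 h and -0.0019 at 6 h. Among all genes, the share 2-fold lower at 6 h was 9.85% of 802 genes up to 5 kb, 6.70% of 2358 genes of 5 to 20 kb, 2.40% of 2296 genes of 20 to 50 kb and 2.31% of 2428 longer genes. The same shares at 3 h, 7.61%, 5.34%, 3.88% and 6.63%, did not follow length, and the bins' median ratios at 6 h, -0.015, -0.12, -0.16 and -0.11, were highest for the shortest genes. These are correlations across genes, which are not independent replicates, and all of them come from the same 3 libraries.

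**Figure D5:**
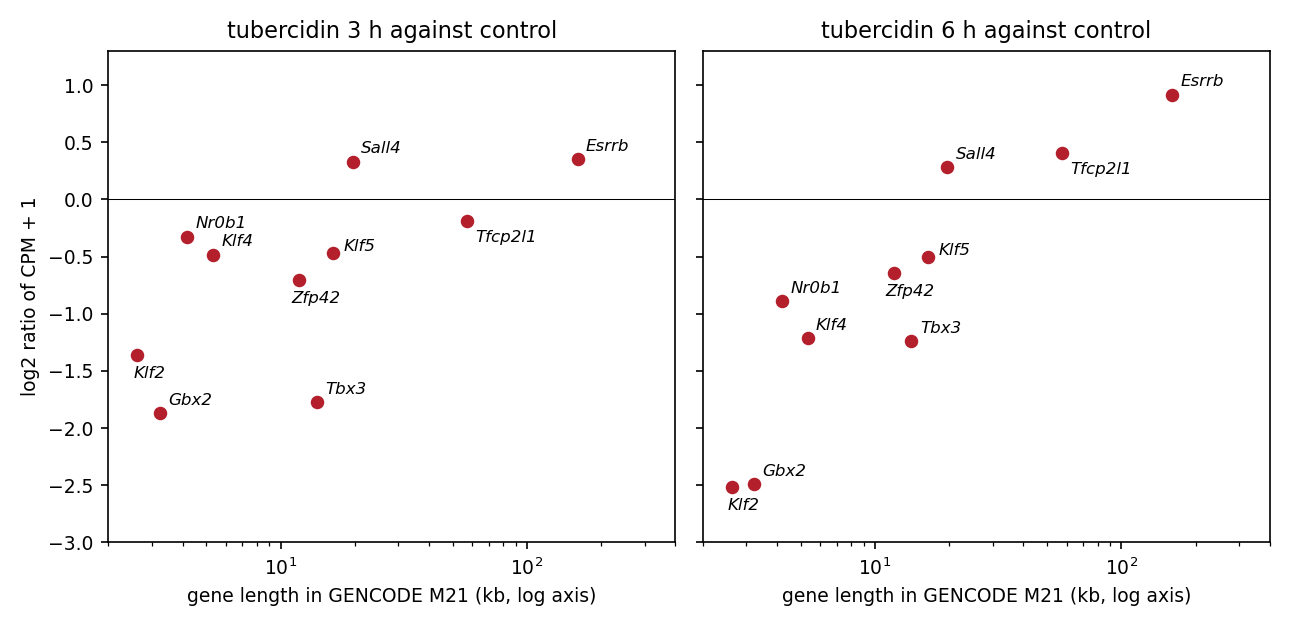
Log2 ratio of CPM + 1 of each naive network gene against its span in GENCODE M21 (kb, log axis), tubercidin 3 h against control on the left and 6 h on the right, 1 library each. At 6 h the points climb from Klf2 (2.62 kb, -2.52) to Esrrb (160.5 kb, 0.92), the latter positive in share of the library and not in UMIs per cell.

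The wider circuit was read from lists of known genes, counting only those with a mean of at least 10 CPM as past 2-fold. Genes that stand for a count of 5 or fewer were named after their values were seen. Of the 3 core factors, Pou5f1 (OCT4) was at 137, 159 and 213 CPM, Sox2 at 205, 80.6 and 81.1 CPM, and the level of Nanog was 77.4, 62.4 and 50.2 CPM. Sox2 was the 1 past 2-fold, lower at both times. Of 15 other genes of the naive state, 13 passed the minimum and Fgf4 alone was past 2-fold, lower at 3 h and at 6 h, at 85.9, 22.9 and 35.1 CPM. Fgf4 encodes the growth factor that drives ERK in these cells, and like Tbx3 it was lowest at 3 h. That list had medians of -0.02 and 0.07, with Mybl2, a cell cycle transcription factor gene, highest at 279.7, 361 and 471 CPM.

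The LIF and STAT3 list, with medians of -0.75 and -0.40 over 10 genes, held parts of the signalling chain beside genes that respond to it. Of 9 that passed the minimum, 4 were 2-fold lower at 3 h (Socs3, Pim1, Pim3 and Junb) and 1 at 6 h (Pim3). Of the chain itself, Lifr, Il6st, Jak1 and Stat3 passed the minimum. Their log2 ratios at 3 h were -0.61, -0.55, -0.89 and -0.39, none past 2-fold. Socs3, the feedback inhibitor of STAT3, was at 22.2, 9.40 and 24.0 CPM, and Junb at 42.3, 11.5 and 30.5 CPM, and these were the 2 past 2-fold upward between 3 h and 6 h. Pim3, a kinase gene, was at 53.9, 18.8 and 25.6 CPM, and Bcl3, at the other end of the list, at 19.2, 22.5 and 24.9 CPM.  Pim1 and Socs3 lay closer to the 2-fold line at 3 h than the shift of 0.19 to 0.23 that other scalings gave.

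The WNT and TCF3 list had medians of -0.25 and -0.08 over 8 genes, with 1 of 7 past 2-fold, Tcf7l1 at 3 h (-1.03), at 123, 59.7 and 79.7 CPM, which is also closer to the line than that shift. Axin2, a feedback target of WNT, was lowest at 6 h, at 4.04, 1.67 and 2.19 CPM, and Gsk3a highest, at 29.4, 29.8 and 36.6 CPM. In the FGF and ERK list, with medians of -0.47 and -0.43 over 12 genes, 2 of 9 were 2-fold lower at 3 h (Spry2 and Spred2) and 1 was 2-fold higher at 6 h. The minimum left out Spry4, Dusp6 and Egr1, which had 17.7, 13.7 and 11.5 CPM in the control and log2 ratios of -2.35, -1.86 and -2.42 at 6 h. The gene that was higher, the receptor gene Fgfr2, was at 94.8, 117 and 193 CPM, like Esrrb highest at 6 h. Egr1, an immediate early gene driven by ERK, was lowest, at 11.5, 5.59 and 1.34 CPM.

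Formative and primed genes had medians of -0.56 (3 h) and -0.79 (6 h) over 9 genes. Foxd3 was lowest of that list at 7.53, 4.42 and 1.09 CPM, and Sall2, a relative of Sall4, highest at 0.982, 1.04 and 1.34 CPM. The medians of these genes of the next developmental state thus lay below 0 in the libraries in which Klf2, Tbx3 and Gbx2 were low.

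Relatives of the members gave a further comparison. Of 11 other Klf genes, medians -0.08 and -0.35, 7 passed the minimum. Klf10 was 2-fold higher at 3 h and Klf6 2-fold lower at 6 h. Klf6, at 13.9, 10.8 and 5.79 CPM, had a mean of only 10.2 CPM. It passed the minimum through the control and 3 h libraries, so its call adds nothing to the count. Klf10, known as an early response gene of TGF-beta, was at 19.8, 49.3 and 39.7 CPM, highest of the list at 6 h, and Klf15 was lowest at 4.09, 2.21 and 0.851 CPM. Of 8 relatives of the other members, medians -0.25 and -0.25, none of the 4 that passed the minimum was past 2-fold. Yy1, whose protein resembles REX1, was at 90.2, 94.2 and 107 CPM, and Sall1 at 49.0, 41.9 and 29.0 CPM.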

How the data were processed

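Polyadenylated RNA of single E14 cells was counted in 3 libraries, 1 per condition. The deposited values are raw counts of UMIs per gene and barcode, without a cell filter, made by the authors, per the file headers, in Cell Ranger 7.1.0 on mm10, per the submitters' processing notes. The annotation release, the strand setting and the counting of introns are not given in the sources used here.

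Per library, the UMI minimum for a cell was set to 1/10 of the value at the 99th percentile among its 3000 largest barcodes, and cells also needed 500 genes and no more than 20% mitochondrial UMIs. The minimums were 11034, 2961 and 2107 UMIs. Doublets were kept and no caller was run. Cells were neither clustered nor assigned types. UMIs were summed over cells, scaled to CPM and compared as log2 ratios of CPM + 1. Intervals are exact 95% intervals (Poisson for levels, conditional binomial for ratios without the pseudocount, Clopper-Pearson for shares). They cover counting error only, and no test was possible with 1 library in each group. Genes were counted at 2-fold or more among those with a mean of at least 10 CPM. Cells were thinned without replacement. Alternatives covered the cell minimum, the mitochondrial limit, high-UMI cells, cells above and below the median depth, cell weights, 4 scalings, free RNA, the pseudocount and the filter.

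The members and lists were chosen with earlier results of these data known. Named genes are the members, the highest and lowest gene at 6 h of each list among genes averaging at least 1 CPM, the core factors, the 3 genes nearest to the members with the lowest and the highest 6 h ratio, leaving out predicted genes, the 5 that most followed the members over control cells, and genes that stand for a count of 5 or fewer.

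Gene structure came from GENCODE M21 (GRCm38), and promoters from RefSeq (GRCm38.p6). The ratios and intervals were tested on simulated data. Tools were scipy 1.17.1, numpy 2.4.6, pandas 2.3.3 and matplotlib 3.10.9 under Python 3.11.15, and, under R 4.3.3, edgeR 4.0.16 (TMM factors) and DESeq2 1.42.0 (size factors).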

Additional observations from a re-analysis of the deposited data

Results flagged for a closer look

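Tfcp2l1 lay on different sides of the control at the 2 times: its log2 ratio of CPM + 1 was -0.19 at 3 h and 0.40 at 6 h. Both ratios used the same control library, each rests on 1 library, and the difference between the times was not tested. The ratio of the treated libraries to each other was 0.60, with a counting interval of 0.54 to 0.67, and in UMIs per cell the gene was at 6.92, 1.48 and 1.499.

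Barcodes outside the called cells held 13.05% of the 10 genes' UMIs in the 3 h library and 14.13% in the 6 h library, beside 7.23% for the control. They did not enter the main levels and ratios, and some of them entered the alternatives with free RNA subtracted and with a lower cell minimum. Over all genes these barcodes held 9.31% (control), 15.5% (3 h) and 15.9% (6 h). The highest share of a single member was that of Nr0b1 at 6 h, 20.5%, and the lowest that of Zfp42 in the control, 5.92%.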

How the results depend on the processing

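No paired analysis was possible because each condition has 1 library. In UMIs per cell, scaled and with the pseudocount kept, all 10 members were past 2-fold lower at both times. Between 3 h and 6 h 2 were, Klf2 and Klf4. Gbx2 and Nr0b1, 2.55-fold and 2.25-fold lower without the pseudocount, did not pass with it. The members' medians were -2.44, -3.23 and -0.60. The genes past 2-fold then numbered 6 higher and 7785 lower (3 h), 6 and 7818 (6 h), and 5 and 173 (between the times), because the cells' depths differ. With DESeq2 factors 139 genes were higher and 166 lower at 3 h (70 and 437 with library totals), 57 and 45 between the times (129 and 13), and the members' medians were -0.24 at 3 h and -0.27 between the times. TMM factors gave 126 and 202, 57 and 45, and medians of -0.29 and -0.26. The share of higher genes among those past 2-fold at 3 h was 13.8% with library totals, 45.6% with DESeq2 and 38.4% with TMM factors, and between the times 90.8%, 55.9% and 55.9%. A mean of at least 50 CPM kept 7 members, of which 2 were 2-fold lower at 6 h, with medians of -0.51 at 6 h and 0.0589 between the times. It left 22 genes higher and 95 lower (3 h), 42 and 75 (6 h, 184 and 348 otherwise), and 23 and 4 (between the times). No filter gave 226 and 855, 679 and 707, and 389 and 33. Free RNA subtraction gave medians of -0.39 at 3 h and -0.14 between the times, with 23 genes lower between them, and a pseudocount of 0.1 CPM gave 20. The shallower cells gave medians of -0.41 and -0.16, and equal weight for each cell -0.41 at 3 h. The causes were not tested beyond the construction of each setting.

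Besides UMIs per cell, 14 alternatives were run for each member. Every member kept its sign against the control in all 14, except Tfcp2l1 at 3 h with DESeq2 factors, 0.05, and no member changed its side of 2-fold. Part of this was fixed in advance: the filter settings leave a member's ratio as it was, and a smaller pseudocount cannot change a sign. In UMIs per cell, set apart here, Esrrb and Sall4 at both times and Tfcp2l1 at 6 h turned negative. Between the times, Klf5 turned to 0.04 in the deeper cells and had a lowest value of -0.26. Zfp42 turned negative in 4 alternatives, with a lowest value of -0.17. With 77 UMIs at 6 h, Gbx2 is the member that depth limits most. The number of sequencing reads was not used here, so RNA per cell and sequencing depth cannot be told apart.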
